A study of Saccharomyces cerevisiae BY4741 with 8 samples.

Results

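Ribonucleotide reductase makes the deoxyribonucleotides from which DNA is built, and 10 genes of *S. cerevisiae* that encode its subunits and the proteins around it were followed here in cells treated with KP1019, a ruthenium complex studied as an anticancer drug. The genes were chosen by their systematic names: *HUG1* (YML058W-A), the large subunit genes *RNR1* (YER070W) and *RNR3* (YIL066C), the small subunit genes *RNR2* (YJL026W) and *RNR4* (YGR180C), the inhibitor genes *SML1* (YML058W) and *DIF1* (YLR437C), the repressor gene *RFX1* (YLR176C), and *WTM1* (YOR230W) and *WTM2* (YOR229W). They are 10 of the 6388 genes on the arrays, and all 10 were spotted.

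Cells of BY4741, a haploid *MAT*a laboratory strain with deletion alleles of *HIS3*, *LEU2*, *MET17* (*MET15*) and *URA3*, were grown in synthetic complete medium with glucose at 30 °C to early log phase. Each culture was then split, and treated cells received 80 or 40 μg/ml KP1019 for 3 h while untreated cells of the same culture grew on for the same time without drug. All groups were of this strain, and no checkpoint mutant was on the arrays. The labels give 2 biological replicates per dose, and each was hybridized to 2 arrays on which the dyes Cy5 and Cy3 were exchanged between the samples (dye reversal), which makes 8 arrays. Every spot thus gave a ratio of treated to untreated cells, written below as a log2 ratio (1 means 2-fold higher in treated cells, and 0 means equal). Where 4 values are given for a dose, they are arrays A and B of replicate 1 followed by arrays A and B of replicate 2, and every ± is the SD of the 2 replicate values.

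Ribonucleotide reductase is the rate-limiting enzyme of deoxyribonucleotide synthesis. Rnr1 is its usual large subunit and Rnr3 a damage-inducible one, and Rnr2 and Rnr4 form the small subunit. In undisturbed yeast cells the repressor Rfx1 (also called Crt1), which recruits Tup1 and Cyc8, keeps *RNR2*, *RNR3*, *RNR4*, *HUG1* and its own gene low. When DNA is damaged, the kinases Mec1, Rad53 and Dun1 act in turn to lift this repression. The same kinases lead to loss of Sml1, which binds and inhibits the large subunit, and of Dif1, which promotes import of the small subunit into the nucleus. Wtm1 holds the small subunit there, Wtm2 is its close relative, and Hug1 is a small protein related to Sml1 and Dif1 that binds the small subunit.

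Median spot brightness (foreground, in scanner units) lay between 294 and 4017 over the 8 arrays in the 2 channels, and 67.5% to 99.2% of gene spots were above the blank spots, meaning brighter than the median blank spot by over 3 median absolute deviations. The log2 ratios of all genes were spread more widely in replicate 1 of 40 μg/ml (median absolute deviation 0.68) than in the other 3 replicates (0.32 to 0.39). Array A of replicate 1 at 80 μg/ml was dimmer than the other 3 arrays of that dose, with median brightness 708 for treated and 515 for untreated cells, and the ratios of this dye reversal correlated least across genes (r = 0.406, with the other 3 pairs at 0.661 to 0.832). In the strain check, the spot of *URA3* cleared the blank spots on 0 of 8 arrays in treated and 1 of 8 in untreated cells, and that of *LEU2* on 3 and 5. The spots of *HIS3* and *MET17* cleared them on 8 of 8 arrays in both channels, which goes against a strain that lacks *MET17*, and the source of their signal was not tested. Of the mating type markers, 4 genes of *MAT*a cells cleared the blank spots on 5 to 8 arrays and 4 genes of *MAT*alpha cells on 6 to 8, so that these counts did not tell the mating type. Their median brightness in untreated cells was 12187 (*STE2*), 9331 (*MFA1*), 7000 (*MFA2*) and 1200 (*BAR1*) for *MAT*a genes. It was 774 (*STE3*), 1229 (*MF(ALPHA)1*), 493 (*MF(ALPHA)2*) and 2306 (*SAG1*) for *MAT*alpha genes, so *BAR1* did not stand above them. No label names a slide or scan, so arrays and doses cannot be told apart where all arrays of a dose share a feature, and the small number of arrays limits the precision of every value.

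*HUG1* had the highest log2 ratio of all 6388 genes at both doses. In replicate 1 at 80 μg/ml its ratio was 5.65 on array A and 4.94 on array B, and in replicate 2 it was 5.13 and 4.55. At 40 μg/ml it was 6.20 and 5.79 in replicate 1 and 5.63 and 5.97 in replicate 2. The lowest of these 8 values, 4.55, is a 23.4-fold higher signal in treated cells. The raw brightness shows where the ratios come from: at 80 μg/ml the *HUG1* spot measured 10370, 38095, 24706 and 26002 in treated cells, against 117, 1212, 1116 and 911 in untreated cells. The same spot measured 15799, 8212, 21645 and 10125 in treated cells at 40 μg/ml, against 541, 263, 477 and 367 in untreated cells. *HUG1* was therefore among the dim spots in untreated cells and among the bright ones in treated cells, and on no array did the channels come close. The mean log2 ratio was 5.07 ± 0.32 (33.6-fold) at 80 μg/ml and 5.90 ± 0.14 (59.5-fold) at 40 μg/ml (SD, n = 2 replicates each), with adjusted p = 3.50e-05 and 1.11e-05 (limma). Over the alternatives tried, the fold at 80 μg/ml ran from 28.7 (without replicate 1) to 78.2 (arrays scaled to the same spread), and that at 40 μg/ml from 30.0 (arrays scaled) to 77.0 (background subtracted). These were bulk cultures, and a change in every cell and a change in part of the cells cannot be told apart.

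**Figure D1:**
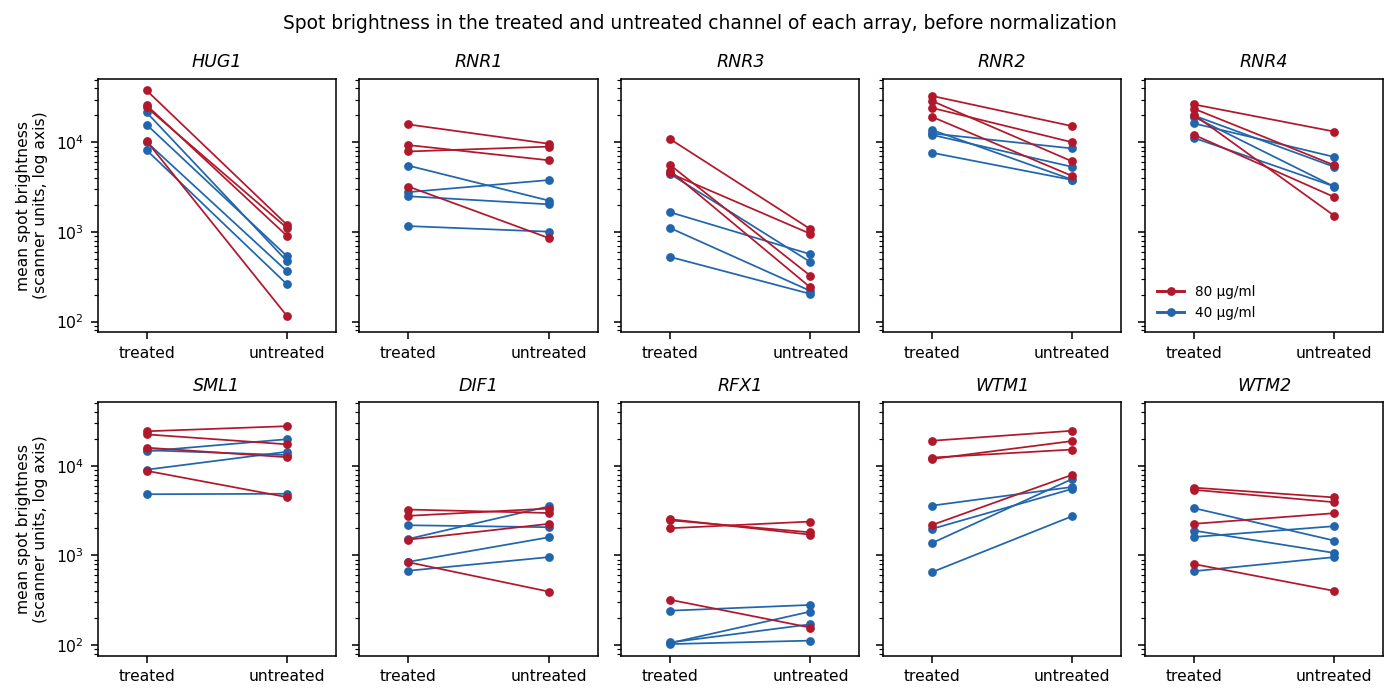
Mean spot brightness (scanner units, log axis) of the 10 genes in the treated (left) and untreated (right) channel of each of the 8 arrays, before normalization, with a line joining the channels of an array, in red for 80 and in blue for 40 μg/ml. All 8 lines of HUG1, RNR3, RNR2 and RNR4 run down toward the untreated side, those of HUG1 most steeply. The RFX1 spot at 40 μg/ml stays between 103 and 280 in both channels.

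Of the 10 genes, 4 were higher in treated cells at 80 μg/ml (adjusted p under 0.05 over all genes), and they were *HUG1*, *RNR3*, *RNR4* and *RNR2*. Of all genes, 2.11% were called higher and 1.41% lower at this dose, and 0 of the 10 were lower. In cells at 40 μg/ml, 7 of the 10 were higher, where 13.0% of all genes were, and 0 were lower, where 10.3% of all genes were. The 3 genes added were *RNR1*, *WTM2* and *SML1*. With an unadjusted p under 0.05 as the threshold, 7 and 8 of the 10 genes passed at 80 and 40 μg/ml in either direction, among them *WTM1* with a ratio below 0, against 18.5% and 38.4% of all genes. The median log2 ratio of the 10 genes was 0.66 at 80 and 1.25 at 40 μg/ml, and that of all genes was 0.00 and -0.01.

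The large subunit genes differed widely in their ratios. *RNR3*, kept low in undisturbed growing cells, ranked 2 of 6388 genes at both doses. Its log2 ratios were 3.72, 3.28, 2.74 and 3.44 on the 4 arrays of 80 μg/ml and 3.23, 3.21, 3.39 and 2.44 on those of 40 μg/ml. Its spot measured 4505 to 10861 in treated and 241 to 1078 in untreated cells at 80 μg/ml, and 527 to 4432 in treated and 204 to 565 in untreated cells at 40 μg/ml, so that it too was dim without drug. The means were 3.30 ± 0.29 (9.82-fold, adjusted p = 0.000192) and 3.07 ± 0.21 (8.39-fold, adjusted p = 0.000330) at 80 and 40 μg/ml (SD, n = 2 each, limma).

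*RNR1*, which supplies the large subunit in normal S phase, was bright in untreated cells (859 to 9672 at 80 and 1010 to 3800 at 40 μg/ml). Before normalization its treated spot was the dimmer one on array A of replicate 1 at 40 μg/ml (2790 against 3800). The same was so on array A of replicate 2 at 80 μg/ml (7930 against 8979). After normalization its ratio was above 0 on 8 of 8 arrays. The values were 1.56, 0.81, 0.54 and 0.49 at 80 μg/ml and 1.00, 1.09, 1.52 and 1.48 at 40 μg/ml. The mean of 0.85 ± 0.48 at 80 μg/ml did not pass the test (adjusted p = 0.0767), and the mean of 1.27 ± 0.32 (2.41-fold) at 40 μg/ml did (adjusted p = 0.0101, limma). At 80 μg/ml *RNR1* passed when each dose was fitted alone (adjusted p = 0.00149), and at 40 μg/ml it missed the threshold with the background subtracted (adjusted p = 0.0604). Fitted alone, a dose has only 2 replicates, and the spread of a gene is taken mostly from the other genes. On every array *RNR3* stood above *RNR1*, by 2.44 ± 0.19 log2 units at 80 and 1.80 ± 0.54 at 40 μg/ml. The genes encode closely related proteins, and whether their spots share hybridization was not tested.

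The small subunit genes *RNR2* and *RNR4* rose at both doses. In untreated cells the *RNR2* spot measured 4217 to 15190 at 80 and 3810 to 8563 at 40 μg/ml. That of *RNR4* measured 1524 to 13224 and 3217 to 6889. These spots were above the median gene spot of their channel on every array but 1. On array B of replicate 2 at 80 μg/ml, *RNR4* measured 2462 in untreated cells, beside a median of 3224. The arrays gave *RNR4* log2 ratios of 3.55, 2.19, 1.49 and 2.14 for 80 μg/ml and 2.56, 2.97, 2.92 and 3.15 at 40 μg/ml. Its mean was 2.34 ± 0.75 (5.08-fold, adjusted p = 0.00379) at 80 and 2.90 ± 0.19 (7.46-fold, adjusted p = 0.00122) at 40 μg/ml. At 80 μg/ml array A of replicate 1, the dim array, gave the highest of these ratios and the SD was wide, and the call was lost with the background subtracted (adjusted p = 0.0608).

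The log2 ratios of *RNR2* were 2.18, 1.17, 1.86 and 2.15 at 80 μg/ml and 1.90, 2.27, 2.12 and 2.35 at 40 μg/ml. Its mean was 1.84 ± 0.23 (3.58-fold, adjusted p = 0.00172) at 80 and 2.16 ± 0.11 (4.48-fold, adjusted p = 0.000956) at 40 μg/ml, and it ranked 16 and 17 of all genes. *RNR4* was above *RNR2* on 4 of 4 arrays at 40 μg/ml, by 0.74 ± 0.09. At 80 μg/ml the gap was 0.50 ± 0.98 and held on 2 of 4 arrays, so the order of the small subunit genes was not resolved there. The protein products work as a pair, and the genes lie on different chromosomes (X and VII in the RefSeq annotation).

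**Figure D2:**
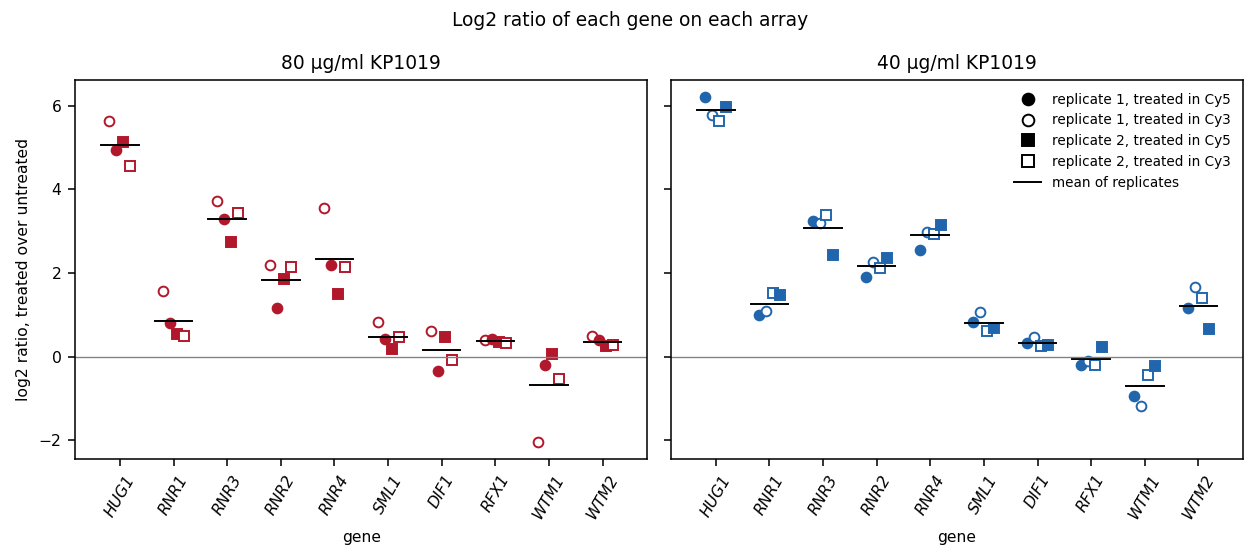
Log2 ratio of treated over untreated cells (vertical axis) of the 10 genes on each array, with 80 μg/ml on the left and 40 μg/ml on the right. Circles are replicate 1 and squares replicate 2, filled where treated cDNA was in Cy5 and open where it was in Cy3, and bars are means of the 2 replicates. The points of HUG1 lie between 4.55 and 6.20, above those of every other gene of the 10 on both sides, while those of RFX1 lie between -0.19 and 0.42.

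*SML1* and *DIF1*, whose proteins restrain the enzyme, were not lower in treated cells at either dose by the test. The arrays measure RNA, and the amounts of the Sml1 and Dif1 proteins were not measured. *SML1* was bright in both channels, at 8798 to 24307 in treated and 4478 to 27696 in untreated cells at 80 μg/ml. At 40 μg/ml it measured 14554, 4820, 14929 and 9058 in treated and 19805, 4880, 13190 and 14347 in untreated cells. The median gene spot on these arrays was dimmer in treated (563, 309, 1165 and 294) than in untreated cells (1815, 610, 1328 and 645). The ratios of *SML1* are thus relative to the other genes, after normalization. They were 0.83, 0.43, 0.18 and 0.46 at 80 μg/ml and 0.82, 1.08, 0.62 and 0.70 at 40 μg/ml, above 0 on 8 of 8 arrays. The mean of 0.81 ± 0.21 (1.75-fold) at 40 μg/ml passed the test (adjusted p = 0.0189) and that of 0.48 ± 0.22 at 80 μg/ml did not (adjusted p = 0.202). The call at 40 μg/ml was lost with the background subtracted (adjusted p = 0.0826) or with median centring in place of loess (0.0566), and *SML1* at 80 μg/ml passed when each dose was fitted alone (0.0216).

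*HUG1* and *SML1* are neighbours on chromosome XIII in the RefSeq annotation, and their ratios differed by 4.59 ± 0.10 log2 units at 80 and 5.09 ± 0.07 at 40 μg/ml. The log2 ratios of *DIF1* were 0.61, -0.34, 0.47 and -0.08 at 80 μg/ml and 0.34, 0.46, 0.26 and 0.28 at 40 μg/ml. Its sign at 80 μg/ml differed between the arrays of each dye reversal, and neither the mean of 0.16 ± 0.04 (adjusted p = 0.669) nor that of 0.33 ± 0.09 (adjusted p = 0.165) passed.

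The repressor gene *RFX1* was the dimmest of the 10 at 40 μg/ml, where its spot measured 105, 103, 242 and 107 in treated and 236, 112, 280 and 170 in untreated cells. At this dose it cleared the blank spots on 2 of 4 arrays in treated and 3 of 4 in untreated cells, and it was the only one of the 10 genes not above them in both channels on every array. Its log2 ratios were 0.40, 0.42, 0.36 and 0.31 at 80 μg/ml and -0.19, -0.10, -0.19 and 0.23 at 40 μg/ml. The tight values at 80 μg/ml had a mean of 0.37 ± 0.05, which did not pass (adjusted p = 0.272) except with the arrays scaled to the same spread (0.0350), and the mean of -0.06 ± 0.12 at 40 μg/ml had no settled sign, since median centring gave 0.35 and the deposited ratios 0.39.

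*WTM1* and *WTM2*, neighbours on chromosome XV, had means of opposite sign. *WTM2* gave log2 ratios of 0.50, 0.39, 0.26 and 0.29 with 80 μg/ml and 1.17, 1.65, 1.41 and 0.65 at 40 μg/ml. Its mean of 1.22 ± 0.27 (2.33-fold) at 40 μg/ml passed the test (adjusted p = 0.00670), although not with the background subtracted (0.0508), and that of 0.36 ± 0.12 at 80 μg/ml did not pass (adjusted p = 0.325). *WTM2* thus stood above 0 on 8 of 8 arrays after normalization. Before normalization its treated spot was the dimmer one at 40 μg/ml on array A of replicate 1 (1607 against 2120) and array B of replicate 2 (667 against 958). The same was so on array A of replicate 2 at 80 μg/ml (2253 against 2960).

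*WTM1*, the main nuclear anchor of the small subunit, gave -2.03, -0.19, 0.07 and -0.53 at 80 μg/ml and -0.93, -1.18, -0.44 and -0.23 at 40 μg/ml. It was below 0 on 7 of 8 arrays, and the means of -0.67 ± 0.62 (adjusted p = 0.217) and -0.70 ± 0.51 (adjusted p = 0.0903) did not pass. Both passed when each dose was fitted alone, with adjusted p = 0.0129 at 80 and 0.0455 at 40 μg/ml (limma). That fit takes the spread mostly from other genes, so these values make little of the wide gap between the replicates of *WTM1*. The value of -2.03 came from the dim array A of replicate 1, and the mean at 80 μg/ml was -0.23 without that replicate. On 8 of 8 arrays *WTM2* was above *WTM1*, by 1.03 ± 0.75 at 80 and 1.92 ± 0.78 at 40 μg/ml. The proteins are related, and whether the spots share hybridization was not tested.

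Set side by side, the damage-inducible subunit genes and the genes of the inhibitors and the repressor did not overlap on any array. The lowest of *RNR2*, *RNR3* and *RNR4* was above the highest of *SML1*, *DIF1* and *RFX1* on 8 of 8 arrays, by 0.74 at the least and 1.67 at the most. *RNR1* stood above the same 3 genes on 8 of 8 arrays too, but by a narrow margin, its smallest gap being to *SML1*, at 0.02 and 0.01 at 80 and 40 μg/ml. In order of mean ratio at 80 μg/ml the genes ran *HUG1*, *RNR3*, *RNR4*, *RNR2*, *RNR1*, *SML1*, *RFX1*, *WTM2*, *DIF1* and *WTM1*, and every neighbouring pair after the first overlapped over the arrays. At 40 μg/ml the order was *HUG1*, *RNR3*, *RNR4*, *RNR2*, *RNR1*, *WTM2*, *SML1*, *DIF1*, *RFX1* and *WTM1*, and there *RNR3* overlapped *RNR4*, *RNR1* overlapped *WTM2*, and *WTM2* overlapped *SML1*, with the other neighbours apart.

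**Figure D3:**
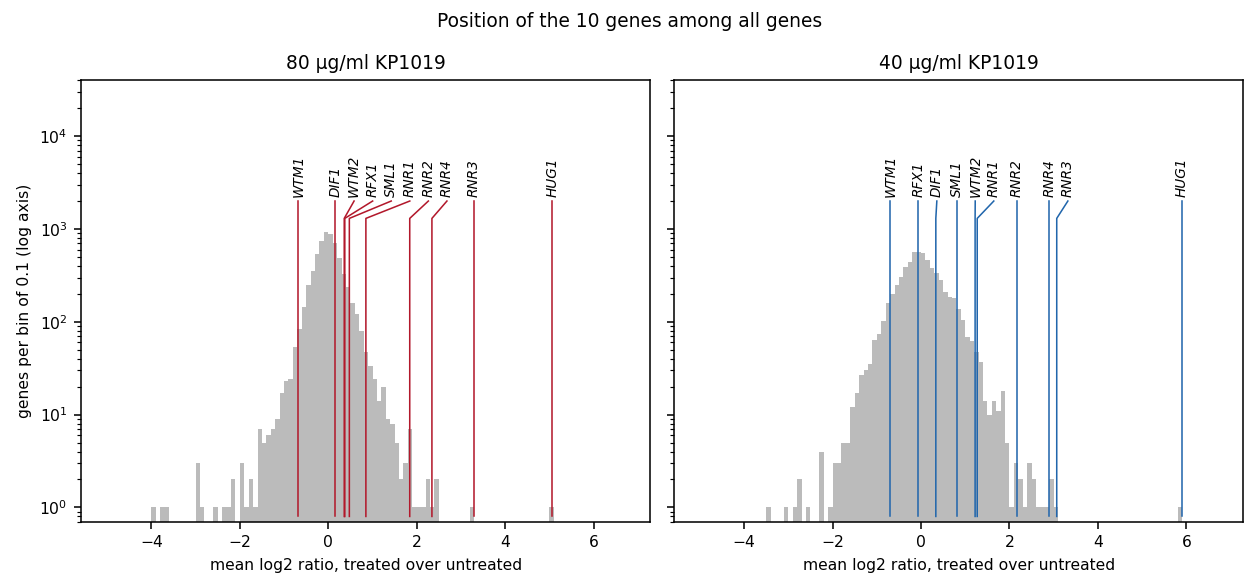
Number of genes per bin of 0.1 (vertical log axis) against mean log2 ratio of treated over untreated cells for all 6388 genes, with 80 μg/ml on the left and 40 μg/ml on the right, and a coloured line at each of the 10 genes. HUG1 (5.07 and 5.90) stands alone at the right, RNR3 (3.30 and 3.07) is next, and SML1, DIF1 and RFX1 lie within the body of the distribution.

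The methods of the study call a gene induced by fold criteria and not by a test: at least 3.5-fold in both replicates, with a % difference between the dye-reversal arrays of at most 50 and a range over the smaller fold of at most 3.5. On the ratios computed here, *HUG1* and *RNR3* met them at 80 μg/ml, where 0.0783% of all genes did (5 genes). *HUG1*, *RNR2* and *RNR4* met them at 40 μg/ml, where 0.219% did (14 genes). The paper names these genes among those induced at 40 μg/ml, and they met the criteria there with the deposited ratios too. With the authors' deposited ratios 0 of the 10 genes met them at 80 μg/ml. The paper reports *HUG1*, *RNR3* and *RNR4* as induced at that dose, so the criteria as applied here did not reproduce its list with either set of ratios. On the ratios computed here 4 of the 10 genes met them without replicate 1 of that dose, a looser rule asked of replicate 2 alone. *RNR1*, *SML1*, *DIF1*, *RFX1*, *WTM1* and *WTM2* were under 3.5-fold in both replicates at both doses, while *RNR3*, *RNR4* and *RNR2* each missed at the other dose through a % difference over the limit. *RNR3* at 40 μg/ml was 9.32-fold and 7.97-fold higher in the 2 replicates, and its % difference in replicate 2 was 63.6. *RNR4* at 80 μg/ml was 8.13-fold and 3.61-fold higher, with a % difference of 87.5 in replicate 1. *RNR2* at 80 μg/ml had a % difference of 67.6 in replicate 1 and was 3.40-fold higher there, just under the limit.

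No gene of the 10 differed between the doses by adjusted p (limma), where 0.141% of all genes (9 genes) did. At an unadjusted p under 0.05, 2 of the 10 passed, against 20.9% of all genes. *HUG1* was lower at 80 than at 40 μg/ml by a log2 difference of -0.83 (95% interval -1.42 to -0.23, adjusted p = 0.161), and this direction turned to 1.38 when the arrays were scaled to the same spread. *WTM2* had a difference of -0.86 (95% interval -1.44 to -0.29, adjusted p = 0.146), and its array values at the doses did not overlap, as was so for 24.5% of all genes. For *RFX1*, whose array values did not overlap either, the difference was 0.44 (95% interval -0.09 to 0.97, adjusted p = 0.310).

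The intervals of the subunit genes reached from -1.39 to 0.27 for *RNR4*, from -1.13 to 0.29 for *RNR1*, from -0.88 to 0.24 for *RNR2* and from -0.37 to 0.83 for *RNR3*. The largest increase with dose that these intervals allow for a subunit gene is 0.83 log2 units, for *RNR3*. With the arrays scaled to the same spread, however, *RNR3* was higher at 80 μg/ml by 1.53 (adjusted p = 0.0168). The intervals were from -0.91 to 0.25 for *SML1*, from -0.70 to 0.35 for *DIF1* and from -0.83 to 0.87 for *WTM1*.

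**Figure D4:**
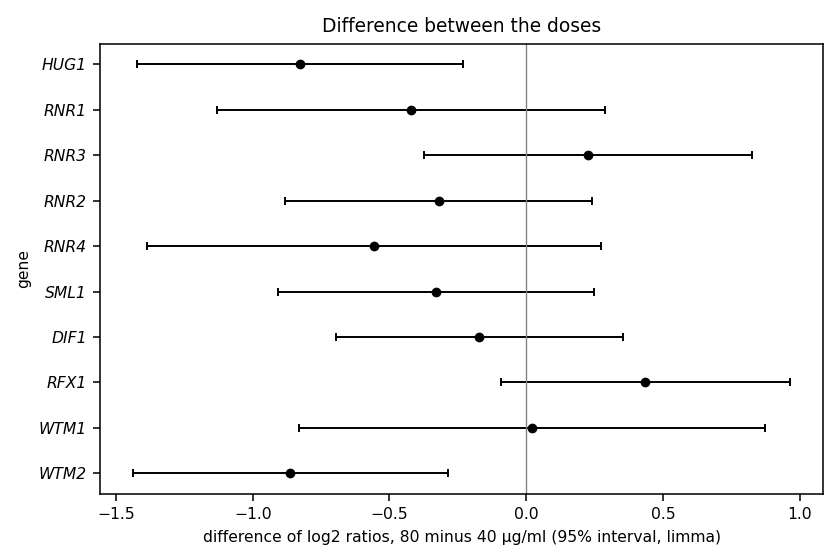
Difference of log2 ratios between 80 and 40 μg/ml (horizontal axis, 80 minus 40) of each of the 10 genes, with the 95% interval from limma. The intervals of HUG1 (-1.42 to -0.23) and WTM2 (-1.44 to -0.29) lie below 0, and the other 8 cross it.

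The genes whose 8 array ratios came nearest to those of a subunit gene were found by the root mean square difference over the 8 arrays, among 5460 genes above the blank spots in both channels on at least 6 arrays. The measure is a description, with dye and array effects shared by all genes. It follows the size of the ratios as much as their pattern, so genes with like means come out near each other. As *HUG1* had the highest mean at both doses, the genes nearest to it were bound to be other strongly raised genes. The nearest to *HUG1* was *RNR3*, at a distance of 2.41 log2 units, followed by *RNR4* (2.90) and *DIN7* (3.20), a mitochondrial nuclease gene, so that no gene on the arrays came close to it. *RNR3* was nearest to *RNR4* (0.84), then to *RIM4* (1.16), a meiotic RNA-binding protein gene, and to *DIN7* (1.17).

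*RNR4* was nearest to *PDR5* (0.64), which encodes a multidrug transporter, to *RIM4* (0.76) and to *DIN7* (0.79). *RNR2* was nearest to *PDR5* (0.35), to *GRE2* (0.36), a stress-induced reductase gene, and to *RIM4* (0.42). *PDR5* had means of 1.76 at 80 and 2.53 at 40 μg/ml, beside 1.84 and 2.16 for *RNR2*. The neighbours of *RNR1* were *SPO12* (0.27), a mitotic exit gene, *DDR2* (0.28), a general stress gene, and *ERG25* (0.32), a sterol synthesis gene. No subunit gene was among the 3 nearest to *RNR1*, *RNR2* or *RNR4*. For *RNR4* this rests on the cut at 3, since *RNR2* (0.81) and *RNR3* (0.84) lay little beyond *DIN7*. The distance of *RNR1* was 1.02 to *RNR2*, 1.59 to *RNR4* and 2.19 to *RNR3*.

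Around these genes, 7 lists were read for their counts and medians. Among 8 checkpoint kinase and mediator genes, 1 rose at 80 and 4 at 40 μg/ml, where 2.11% and 13.0% of all genes were called higher, and none fell, where 1.41% and 10.3% were called lower. *DUN1*, the kinase that acts on Rfx1, Sml1 and Dif1, was higher by 1.42 ± 0.14 at 80 (adjusted p = 0.0107) and 1.98 ± 0.48 at 40 μg/ml (adjusted p = 0.00233). *CHK1* (1.43), *RAD53* (1.23) and *TEL1* (1.18) also passed at 40 μg/ml, while *MEC1* had means of -0.09 and -0.13 and *RAD9* of 0.28 and -0.19 at 80 and 40 μg/ml. The median of the list was 0.33 at 80 and 0.74 at 40 μg/ml.

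Of 7 other DNA damage induced genes, 4 rose at 80 and 3 at 40 μg/ml, where 2.11% and 13.0% of all genes were called higher, and none fell, where 1.41% and 10.3% were called lower. Their medians were 1.08 and 0.72. *DIN7* was higher by 1.78 ± 0.13 and 2.86 ± 0.70 at 80 and 40 μg/ml. *RAD54* (1.08 at both doses) and *PLM2* (1.58 and 1.25) passed at both doses, and *MAG1*, a DNA glycosylase gene, passed at 80 μg/ml (1.18). *RAD2*, *RAD16* and *PHR1*, repair genes, did not pass at either dose, and the spot of *RAD2* was above the blank spots in both channels on 0 of 4 arrays at 80 μg/ml, so that its ratio there says little. The highest of these, *DIN7* at 40 μg/ml, was below *HUG1* in mean ratio. Its order with *RNR3* (3.07 ± 0.21) and *RNR4* (2.90 ± 0.19) at that dose was not resolved.

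Of 9 other enzymes that feed the deoxyribonucleotide pool none passed at 80 μg/ml, where 2.11% of all genes were called higher and 1.41% lower, and the median was -0.27. With 40 μg/ml 2 rose and 3 fell, where 13.0% of all genes were called higher and 10.3% lower, and the median was -0.49. The 2 that rose were *CDC8* (1.00 ± 0.47), thymidylate kinase, and *CDC21* (0.79 ± 0.41), thymidylate synthase. The 3 that fell were *GUK1* (-1.51 ± 1.11, a wide spread), *ADK1* (-1.02 ± 0.36) and *URA6* (-0.64 ± 0.28), nucleotide kinases. Of 7 genes for the reduction and metal cofactor of the enzyme none passed at 80 μg/ml, while *TAH18* rose (0.59) at 40 μg/ml and *TRR1*, thioredoxin reductase, fell (-1.24), which is 1 of 7 in each direction beside 13.0% and 10.3% of all genes, and the medians were 0.09 and 0.04. Of 4 genes for import of the small subunit and turnover of Sml1, *RAD6*, a ubiquitin-conjugating enzyme, fell at 40 μg/ml (-1.03 ± 0.76), beside 10.3% of all genes called lower. Its spot was above the blank spots in both channels on 3 of 4 arrays there. The medians of this list were -0.21 and 0.18.

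Among 9 other transcription regulators of the subunit genes, *IXR1*, a DNA-binding protein that acts on *RNR1*, fell, with log2 ratios of -0.88 ± 0.16 at 80 and -0.94 ± 0.09 at 40 μg/ml (adjusted p = 0.0297 and 0.0106). At 40 μg/ml the corepressor genes *CYC8* (-0.62) and *TUP1* (-0.56) and the repressor gene *MOT3* (-0.72) fell, while *NRM1* (1.20) and *SWI4* (1.16), regulators of G1/S transcription, rose. The values of *CYC8* and *TUP1* at 80 μg/ml were -0.61 and -0.45, and neither passed there. These are 0 higher and 1 lower of 9 at 80 μg/ml, beside 2.11% and 1.41% of all genes, and 2 higher and 4 lower at 40 μg/ml, beside 13.0% and 10.3%. The medians of this list were -0.31 and -0.23.

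Of 17 replication genes that, like *RNR1*, are transcribed at G1/S, 1 rose at 80 and 6 at 40 μg/ml, where 2.11% and 13.0% of all genes were called higher, and none fell, where 1.41% and 10.3% were called lower. The medians were 0.29 and 0.41. *RFA2*, a subunit of the single-strand binding protein, passed at 80 μg/ml (0.86, adjusted p = 0.0477). *PRI2* (1.25), *RFA1* (1.08), *RAD27* (1.07), *CLB5* (0.92), *POL12* (0.59) and *CDC9* (0.59) passed at 40 μg/ml. The means of these genes ran from -0.65 to 0.90 at 80 and from -0.26 to 1.25 at 40 μg/ml, beside 0.85 and 1.27 for *RNR1* itself. The paper reports that large-budded cells accumulate at both doses, so treated and untreated cells differed in cell cycle stage. What this adds to the ratios was not tested.

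**Figure D5:**
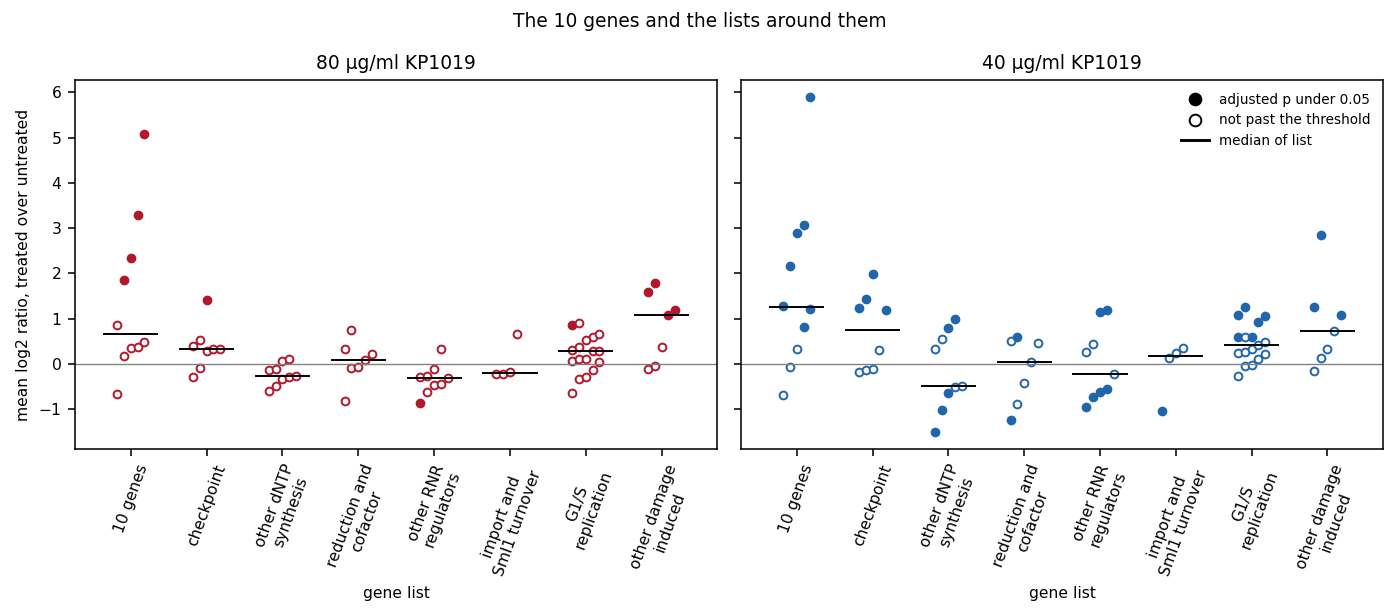
Mean log2 ratio of treated over untreated cells (vertical axis) of the 10 genes and of each gene in the 7 lists around them, with 80 μg/ml on the left and 40 μg/ml on the right. Filled points passed an adjusted p under 0.05 (limma), open points did not, and bars are medians of a list. The other damage induced genes have the highest median at 80 μg/ml (1.08) and the 10 genes at 40 μg/ml (1.25), and the other enzymes of deoxyribonucleotide synthesis have the lowest median at 40 μg/ml (-0.49).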

How the data were processed

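The arrays were quantified in MagicTool, and the authors deposited each array's intensity values for 6688 features (foreground and background, both dyes) without normalization. The authors also deposited a table of signed fold ratios, which was used as an alternative. Checked against the intensities, its values were total foreground in red over green, rescaled by 1 constant for each array and with no background removed.

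Mean intensities were corrected by normexp (offset 50) and normalized by loess within each array (limma 3.58.1, R 4.3.3), with no weight on 85 blank and 23 control spots. Repeat spots were averaged per gene, the sign was changed on arrays where Cy3 marked treated cells, and dye-reversal arrays were averaged, giving 4 replicate values for 6388 genes. Each dose was tested against 0, and 80 against 40 μg/ml, with limma (two-sided, Benjamini-Hochberg over all genes, threshold 0.05). Both doses shared 1 spread (2 residual and 5.66 prior degrees of freedom). The limma fit was tried on simulated replicate values with a spread taken from these data, and the fold criteria on a small made-up case. Background correction, normalization and the other steps were not tested in this way.

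Of the genes, 5848 matched a RefSeq locus tag, used for names and neighbours only. The genome build is not given in the sources used here. The named genes are the 10 members, the 3 nearest to each of *HUG1* and the subunit genes, and, from the 7 lists, those past the threshold or at the ends of a list, with *MEC1*, *RAD9*, *RAD16*, *PHR1*, and *CYC8* and *TUP1* at 80 μg/ml, named beside them after their values were seen. The members and lists were chosen with earlier results of these data known. From the lists, 1 gene is not reported here and was left out of the counts and medians of its list. For the fold criteria the 3.5-fold was asked of the mean over a dye pair. Promoter motifs and protein identities were not analysed here. Alternatives covered background, normalization, filters, criteria, pairing and each replicate left out.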

Additional observations from a re-analysis of the deposited data

How the results depend on the processing

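Of 388 recomputed values of single genes, 348 kept their direction and their side of the threshold, 23 passed only under the alternative, 5 were lost and 12 turned direction. *HUG1*, *RNR3* and *RNR2* passed at both doses under every alternative that held them, and *RNR4* did except at 80 μg/ml with the background subtracted. The filter on dim genes kept 1394 genes and dropped *RNR3*, *DIF1*, *RFX1* and *WTM2*. With the background subtracted, the number of the 10 genes higher at 40 μg/ml was 4 in place of 7. With the arrays scaled to the same spread, 7 in place of 4 were higher and 1 in place of 0 (*WTM1*) lower at 80 μg/ml, and 1 (*RNR3*) was higher at 80 than at 40 μg/ml. *WTM1* was the 1 gene lower at 40 μg/ml under median centring, and the 1 gene lower at each dose with each dose fitted alone. Leaving out a replicate gave 7 genes higher and 0 to 1 lower at 40 μg/ml, and 4 to 6 higher and 0 to 1 lower at 80 μg/ml. Between the doses it gave 0 higher and 0 to 2 lower, the 2 being *HUG1* and *WTM2* without replicate 2 of 40 μg/ml. At 80 μg/ml *RNR1*, *SML1* and *WTM1* passed without either replicate of 40 μg/ml, when the spread came from 80 μg/ml alone (a lone replicate is assumed to vary like the other dose). The fold criteria gave 3 to 4 genes at 40 and 2 to 4 at 80 μg/ml, and 0 at 80 μg/ml with the deposited ratios. The 4 at 80 μg/ml came without replicate 1 of that dose, when the criteria were asked of replicate 2 alone.

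Values that turned direction were those of *RFX1* at 40 μg/ml (0.35 with median centring, 0.0096 with total brightness, 0.39 with the deposited ratios, and -0.15 to 0.021 with a replicate left out), and differences of 80 minus 40 μg/ml. These were *DIF1* with median centring (0.029), *RNR3* with total brightness (-0.0016), *HUG1* (1.38), *RNR2* (0.42), *RNR4* (0.37) and *WTM1* (-0.19) with arrays scaled, and *WTM1* with a replicate left out (-0.42 without replicate 2 of 80 μg/ml to 0.46 without replicate 1 of 80 μg/ml, and -0.34 without replicate 1 of 40 μg/ml). The causes were not tested. Over all genes, calls ran from 102 to 3059 at 40 μg/ml (1489 as reported), from 40 to 1477 at 80 μg/ml (225) and from 0 to 2339 between the doses (9), the 3059 and 2339 without replicate 2 of 40 μg/ml and the lowest of each with the background subtracted. With the replicate block, 0 of the 10 genes and 440 of all genes differed between the doses. The labels do not say whether a number marks a shared culture, and the deviations of same-numbered samples correlated with r = -0.136 over 2 numbers, which does not settle it. With the block crossed, chosen after seeing the data, 2 of the 10 genes (*HUG1* and *WTM2*, lower at 80 μg/ml) and 830 of all genes differed. The normexp offset of 0 was also chosen after seeing the data. *RFX1* at 40 μg/ml was limited by signal near that of the blank spots.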
